A study of Mus musculus with 6 samples.

Results

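Bcl11b encodes a zinc finger transcription factor that T-cell progenitors switch on when they give up other fates, and it is needed for T-lineage commitment. The gene lies at the edge of a gene desert, a long stretch with hardly any protein-coding gene. Notch signaling through RBPJ and the transcription factors TCF-1 (encoded by Tcf7), GATA3 and RUNX1 are known to act on its activation, and an enhancer region far downstream in the desert, from which a noncoding RNA named ThymoD is transcribed, is known to control it. Enhancers are regulatory intervals that can act over such distances and that are usually accessible when in use. This region was examined in ATAC-Seq data, in which a transposase inserts adapters into open chromatin so that dense reads mark accessible intervals, here called peaks.

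The peaks were taken from the Bcl11b gene body, the 100 kb upstream of its 5′ end and the 1.5 Mb downstream of its 3′ end, on chromosome 12 of the mouse genome build mm9, at chr12:107648613-109341812. A peak was assigned by its centre. In total, 62 of the 32527 peaks of the data set met this rule, of which 2 lay upstream, 6 in the gene body and 54 downstream. The cells were Beko, a mouse progenitor T-cell line with constitutively active Notch. DAPT, a γ-secretase inhibitor (GSI) that stops the release of the Notch1 intracellular domain, was given for 24 h in 3 libraries, and the solvent DMSO was given for 24 h in the other 3. As a model, this is 1 leukemic cell line in culture. The labels give no genetic change that distinguishes the groups and do not say whether the replicates were separate cultures. The authors deposited 1 list of peaks merged over the 6 libraries, with a score of 0 for each peak. The list therefore gives position and width, and it gives no value for a library. GSI and DMSO were not compared here, no value below has an error between replicates, and the depth of the libraries was not used here. Only accessibility was measured in these samples, so the cell type could not be checked against the expression of its markers.

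Bcl11b (ENSMUSG00000048251.9) spans chr12:109148613-109241812 on the minus strand, 93.2 kb in length, in the GENCODE annotation of this build. Downstream of the gene therefore means towards lower coordinates. The annotation holds 3 transcripts with 2 starts that lie 188 bp apart, and the longest transcript has 4 exons. The peaks that carry most of the description are shown by their central 300 bp. All windows are printed 5′ to 3′ on the plus strand of mm9. Capitals mark matches, on either strand, to short words preferred by transcription factors. RBPJ prefers TGGGAA, which is also the core of the Ikaros motif, and its degenerate form TGAGAA. The word of RUNX factors was TGTGGT, that of GATA factors AGATAA and that of TCF7/LEF1 CTTTGA. E proteins were represented by CAGCTG, ETS factors by AGGAAG and SP factors by GGGCGG. The core of the CTCF motif was searched as AGGGGGC or as AGGTGGC, the first of which can share letters with the SP word. CAGCTG reads the same on both strands and was counted once.

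The promoter peak is shown first because it lies beside the start of the gene (window chr12:109242141-109242440). The 2 widest peaks of the gene body follow, since they stand side by side in the last intron (windows chr12:109164496-109164795 and chr12:109166241-109166540).
Promoter peak: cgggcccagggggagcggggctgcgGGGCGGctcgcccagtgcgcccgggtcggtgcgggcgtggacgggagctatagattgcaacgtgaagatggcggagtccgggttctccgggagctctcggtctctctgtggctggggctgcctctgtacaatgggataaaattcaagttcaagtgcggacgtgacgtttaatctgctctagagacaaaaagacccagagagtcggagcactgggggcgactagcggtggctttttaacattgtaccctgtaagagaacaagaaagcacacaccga
Gene body peak A: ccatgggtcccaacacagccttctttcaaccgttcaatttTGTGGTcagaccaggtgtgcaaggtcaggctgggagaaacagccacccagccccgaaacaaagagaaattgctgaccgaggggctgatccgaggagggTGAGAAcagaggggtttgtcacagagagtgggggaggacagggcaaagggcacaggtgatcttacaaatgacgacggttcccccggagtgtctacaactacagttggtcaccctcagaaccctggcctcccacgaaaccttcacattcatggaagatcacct
Gene body peak B: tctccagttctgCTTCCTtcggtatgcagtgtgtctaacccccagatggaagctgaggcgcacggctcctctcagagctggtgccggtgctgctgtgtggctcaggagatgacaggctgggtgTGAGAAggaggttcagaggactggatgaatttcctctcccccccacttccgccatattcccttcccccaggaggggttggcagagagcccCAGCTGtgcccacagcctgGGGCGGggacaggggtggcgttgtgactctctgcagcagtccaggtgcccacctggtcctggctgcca

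The 3 widest peaks between 0.7 and 1.0 Mb downstream are shown because the known far enhancer region lies in the far part of the desert (windows chr12:108422146-108422445 for A, chr12:108357008-108357307 for B and chr12:108362305-108362604 for C). The positions of ThymoD and of that enhancer are not in the files used here, so no peak was assigned to them.
Far peak A: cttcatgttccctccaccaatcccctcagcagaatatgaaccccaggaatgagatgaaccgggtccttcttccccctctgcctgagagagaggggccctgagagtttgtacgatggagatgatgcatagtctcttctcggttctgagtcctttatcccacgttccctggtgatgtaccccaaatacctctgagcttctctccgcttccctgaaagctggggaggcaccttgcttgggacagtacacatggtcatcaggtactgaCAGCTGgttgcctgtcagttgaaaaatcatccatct
Far peak B: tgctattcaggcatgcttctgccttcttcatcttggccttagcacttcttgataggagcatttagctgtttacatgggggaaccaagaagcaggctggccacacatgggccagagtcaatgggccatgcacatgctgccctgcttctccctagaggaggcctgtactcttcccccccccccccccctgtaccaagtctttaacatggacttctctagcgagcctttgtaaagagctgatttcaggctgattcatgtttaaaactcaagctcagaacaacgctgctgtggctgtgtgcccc
Far peak C: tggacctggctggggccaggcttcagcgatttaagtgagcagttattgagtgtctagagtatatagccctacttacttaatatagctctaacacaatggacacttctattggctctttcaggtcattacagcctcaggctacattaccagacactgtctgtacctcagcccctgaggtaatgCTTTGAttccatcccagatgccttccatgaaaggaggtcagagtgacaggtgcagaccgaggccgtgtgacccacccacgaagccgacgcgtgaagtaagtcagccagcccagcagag

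Another 2 peaks were chosen after their sequences had been searched. In the central 300 bp, they are the distal peak with most TGGGAA (far peak D, window chr12:108389473-108389772) and the peak with most TGTGGT (far peak E, window chr12:108386849-108387148) in the longest run of peaks of the region. That run is the longest when peaks within 15 kb of each other are joined. In far peak E the CTCF core on the minus strand and TGAGAA share 1 letter.
Far peak D: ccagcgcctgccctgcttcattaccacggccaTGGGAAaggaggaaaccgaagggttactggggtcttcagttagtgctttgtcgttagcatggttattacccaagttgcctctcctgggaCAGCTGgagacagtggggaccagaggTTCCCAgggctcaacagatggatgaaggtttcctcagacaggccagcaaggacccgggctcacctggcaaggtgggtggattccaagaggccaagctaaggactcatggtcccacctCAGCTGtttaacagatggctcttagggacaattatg
Far peak E: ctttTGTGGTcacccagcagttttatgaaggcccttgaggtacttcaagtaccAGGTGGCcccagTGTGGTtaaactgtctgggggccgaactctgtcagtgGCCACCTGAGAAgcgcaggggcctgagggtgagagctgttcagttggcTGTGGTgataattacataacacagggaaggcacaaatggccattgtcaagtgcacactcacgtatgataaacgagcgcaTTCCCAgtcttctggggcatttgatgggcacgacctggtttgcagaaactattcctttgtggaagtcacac

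**Figure D1:**
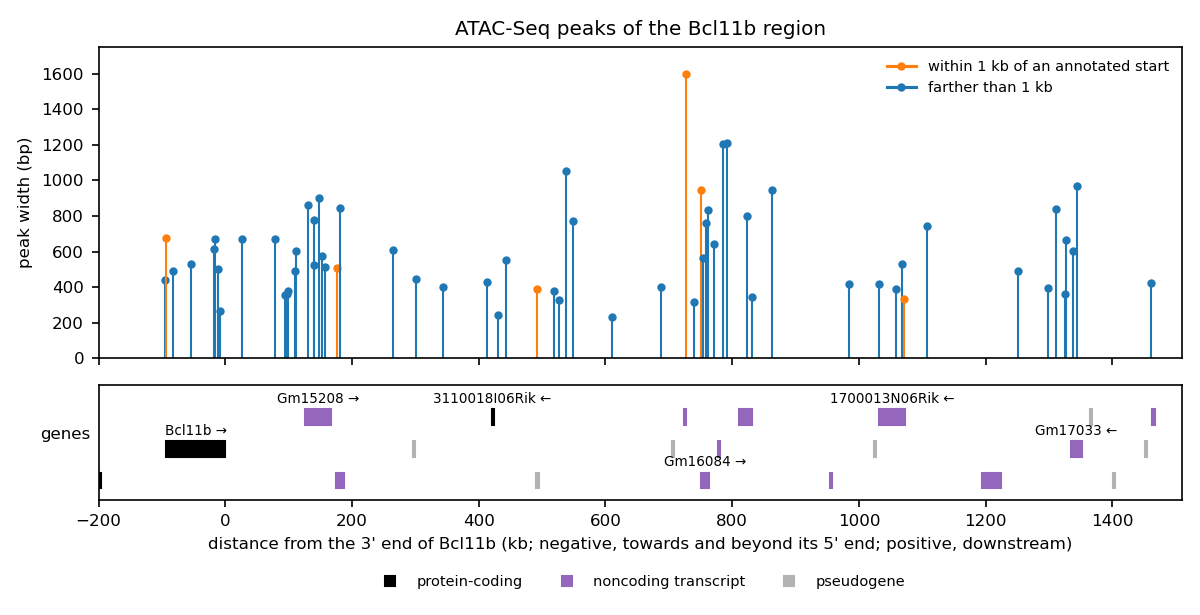
Width in bp (vertical axis) of each of the 62 peaks against its distance in kb from the 3′ end of Bcl11b (horizontal axis), with genes below (arrows, direction of transcription). Stems stand along the whole 1.5 Mb downstream, and the tallest, of 1597 bp, stands 726 kb away.

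At the promoter, 1 peak lay within 1 kb of an annotated start of Bcl11b. It spanned chr12:109241951-109242629 (679 bp) and stood wholly upstream of the gene, from 139 to 817 bp before the 5′ end. Neither of the 2 annotated starts was inside the peak, and the second start was 327 bp from its near edge. Of the 10738 peaks within 1 kb of a protein-coding start, 12.7% likewise held none. The 300-bp promoter of Bcl11b in RefSeq (build GRCm38) matched mm9 once on the chromosome, at chr12:109241575-109241874, and 0 bp of it were in the peak. The RefSeq start of transcription was the second of the 2 starts.

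The promoter peak was narrower than the median of its class. Its 679 bp exceeded 29.2% of the 11522 peaks within 1 kb of any annotated start, whose median width was 855 bp. Its GC content was 62.3%, against a class median of 60.5%. The ratio of observed to expected CpG dinucleotides, which is high in CpG islands, was 0.867 against 0.728. In its central window, shown above, GGGCGG was found once and none of the other words was found. The other upstream peak, at chr12:109244260-109244702 (443 bp), had a GC content of 69.8% and a CpG ratio of 0.725. It held the first RBPJ word (TGGGAA), the E protein word and the SP word once each. The rest of the upstream 100 kb was without a peak, and the first one beyond the border, at chr12:109359461-109359865, was 17.9 kb past the border.

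All 6 peaks of the gene body were intronic. Intron 1 (13.3 kb) held 1 peak, at chr12:109231207-109231695 (489 bp), whose centre lay 10.4 kb from the 5′ end. Intron 2 (23.6 kb) held 0 peaks. Intron 3 (48.3 kb), the last one, held 5. The first of these, at chr12:109202797-109203328 (532 bp), began 553 bp after exon 3. The other 4 formed a run of 9.63 kb near the far end of the intron, and the nearest was 1.44 kb from exon 4. They lay at chr12:109166083-109166697 (615 bp), chr12:109164311-109164980 (670 bp), chr12:109159248-109159748 (501 bp) and chr12:109157064-109157328 (265 bp). The intronic peaks thus stood in the first and the last intron, most of them towards the 3′ end of the gene.

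These 6 peaks amounted to 64.4 per Mb, which is 4.99 times the 12.9 per Mb of the autosomes. Among the other 1547 protein-coding genes of 70 to 120 kb, the median number of peaks in the body more than 1 kb from any start was 1. In total, 96.4% had fewer than Bcl11b, while 55 had as many or more. The words in the printed windows differed between the 2 widest. Gene body peak A held the RUNX word and the degenerate RBPJ word. Gene body peak B held the degenerate RBPJ word, the E protein word, the ETS word and the SP word. Over the whole width of the peaks, 2 of the 6 contained TGGGAA, against 39.2% of all peaks more than 1 kb from any start. In the central window, none of the 6 had AGATAA or CTTTGA, against 13.5% and 23.0% of those peaks. CAGCTG and AGGAAG were in 3 of the 6 each, against 32.7% and 48.2%. With only 6 peaks, these counts do not set the gene body apart.

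Downstream of Bcl11b the density was 36.0 peaks per Mb, 3.42 times that of chromosome 12 (10.5 per Mb) and 2.79 times that of the autosomes. Peaks covered 22.0 bp per kb there, against 8.45 bp per kb over the autosomes. Of the 54 peaks, 49 were distal, that is, more than 1 kb from the start of any annotated transcript. The other 5 lay near starts of noncoding transcripts or of a pseudogene. Counting by 100 kb, the numbers of peaks from the gene outwards were 5, 10, 1, 2, 4, 4, 2, 9, 3, 1, 4, 1, 2, 5 and 1. No 100-kb bin was empty, although the median of the 24712 autosomal bins was 0 and their mean was 1.29. The counts were uneven, with one maximum near the gene and another far from it. The bin of 10 peaks, from 100 to 200 kb, held more than 99.3% of autosomal bins. The bin of 9, from 700 to 800 kb, held more than 98.6%.

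**Figure D2:**
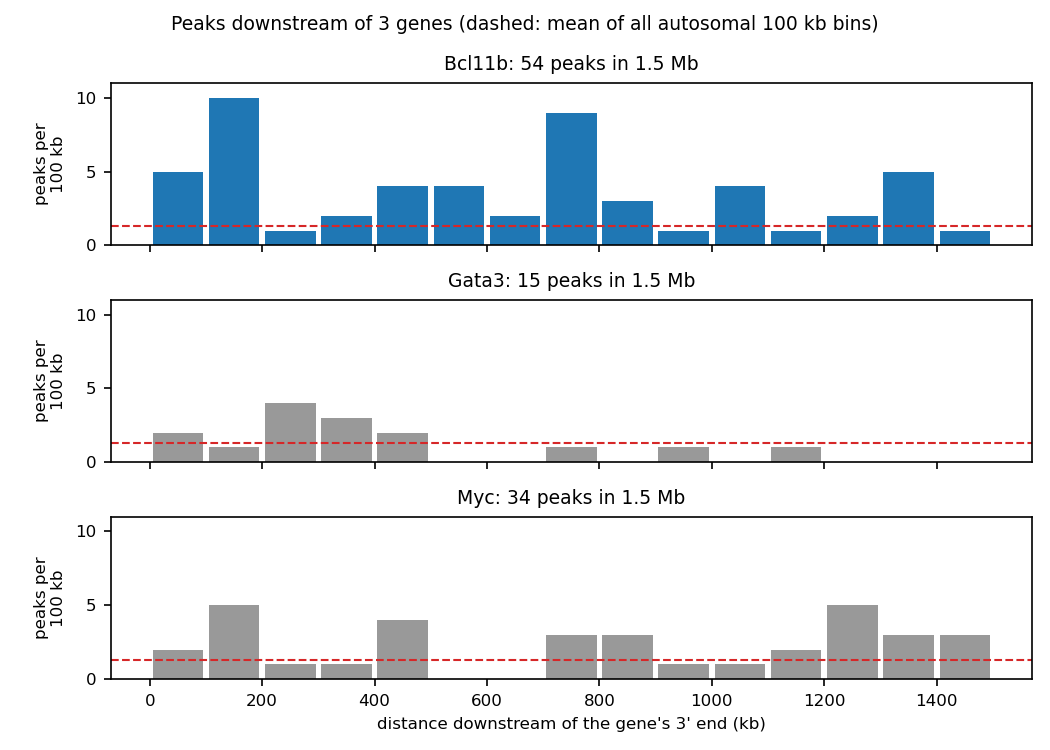
Number of peaks per 100 kb (vertical axis) against distance in kb downstream of the 3′ end (horizontal axis) for Bcl11b (blue), Gata3 and Myc (gray), with the mean of all autosomal bins as a dashed line at 1.29. Bcl11b has a peak in all 15 bins, while Gata3 has 7 empty bins and Myc 2.

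The nearest downstream peak, at chr12:109122549-109123218 (670 bp), was centred 25.7 kb from the 3′ end. The farthest, at chr12:107687343-107687763 (421 bp), was centred 1461 kb from it. Beyond the border the next peak, at chr12:107617515-107617819, was 30.9 kb away. The widest space without a peak measured 143 kb, from 1108 to 1252 kb downstream. Distal peaks downstream had a median distance of 7237 bp to the next peak, against 9400 bp for all autosomal distal peaks. In total, 19 of the 49 had another peak within 5 kb, which was the case for 29.0% of autosomal distal peaks. When peaks within 15 kb of each other were joined, the longest run had 9 peaks and reached from 726 to 792 kb downstream (chr12:108356553-108423093, 66.5 kb). It was followed by runs of 6 peaks at 130 to 158 kb and at 1298 to 1345 kb, a run of 5 at 93.5 to 112 kb, and runs of 4 at 519 to 549 kb and in intron 3. The runs depend on the 15 kb distance. With 5 kb in its place, the run with most peaks was that of 4 in intron 3. The far run then broke into single peaks and pairs at 750 to 753, 759 to 762 and 786 to 792 kb. Together, the first 200 kb held 15 peaks, or 27.8% of those downstream.

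The median width of the distal peaks downstream was 550 bp, against 465 bp for all distal peaks. Over all 54 peaks the median was 540 bp (quartiles 398 and 777 bp), and the widths ranged from 233 to 1597 bp. The 95% interval of this median from order statistics, 429 to 664 bp, contained the 465 bp of all distal peaks. It takes peaks as independent draws, which peaks of a run are not, and does not cover differences between libraries. Of the 49 distal peaks, 3 were wider than 1 kb, against 5.03% of all distal peaks. The 5 widest peaks downstream were those of 1597 bp at chr12:108421497-108423093, 1210 bp at chr12:108356553-108357762, 1203 bp at chr12:108361853-108363055, 1051 bp at chr12:108609805-108610855 and 971 bp at chr12:107803360-107804330. They lay 726, 791, 786, 538 and 1345 kb from the gene, so that the 3 widest belonged to the longest run at the 15 kb distance. The share of all distal peaks that were narrower was 99.7% for the first of them and 94.3% for the last. The first covers the start of a noncoding transcript, so it is not itself a distal peak. Peaks within 1 kb of any annotated start are wider in general, with a median of 855 bp.

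The interval from 0.7 to 1.0 Mb downstream held 13 peaks, or 43.3 per Mb, compared with 34.2 per Mb in the rest of the 1.5 Mb. The median width there was 799 bp (range 317 to 1597 bp), against 508 bp for the other 41 peaks, a difference of 291 bp. The 13 peaks include 2 within 1 kb of a start, of 1597 and 946 bp, and the other 41 include 3. Widths of the distal peaks alone were not compared between the interval and the rest. Covered length was 35.3 bp per kb in the interval and 18.7 bp per kb outside it. Of the 4 downstream peaks wider than 1 kb, 3 lay in this interval. The bin from 700 to 800 kb, 6.67% of the window, held 8080 bp or 24.5% of the covered length downstream, followed by the bin from 100 to 200 kb with 6608 bp.

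Going outwards, the interval began with far peak A, which covers the start of the noncoding transcript Gm2800. It was followed by chr12:108409201-108409517 (317 bp), a narrow peak in which the CAGCTG and AGGAAG words were found. The next, at chr12:108398038-108398983 (946 bp), covers the start of the noncoding transcript Gm16084. Inside Gm16084 there were 3 peaks, at chr12:108395170-108395732 (563 bp), at chr12:108389241-108390003 (763 bp, far peak D) and at chr12:108386581-108387416 (836 bp, far peak E). Then came chr12:108377008-108377652 (645 bp) and the pair of wide peaks C and B, 4090 bp apart and outside any transcript, which closed the run. Beyond the run the peaks were sparser, at chr12:108324125-108324923 (799 bp, inside Gm16086), chr12:108316543-108316887 (345 bp), chr12:108284933-108285877 (945 bp) and chr12:108164232-108164648 (417 bp). The last of these stood alone, 984 kb from the gene.

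**Figure D3:**
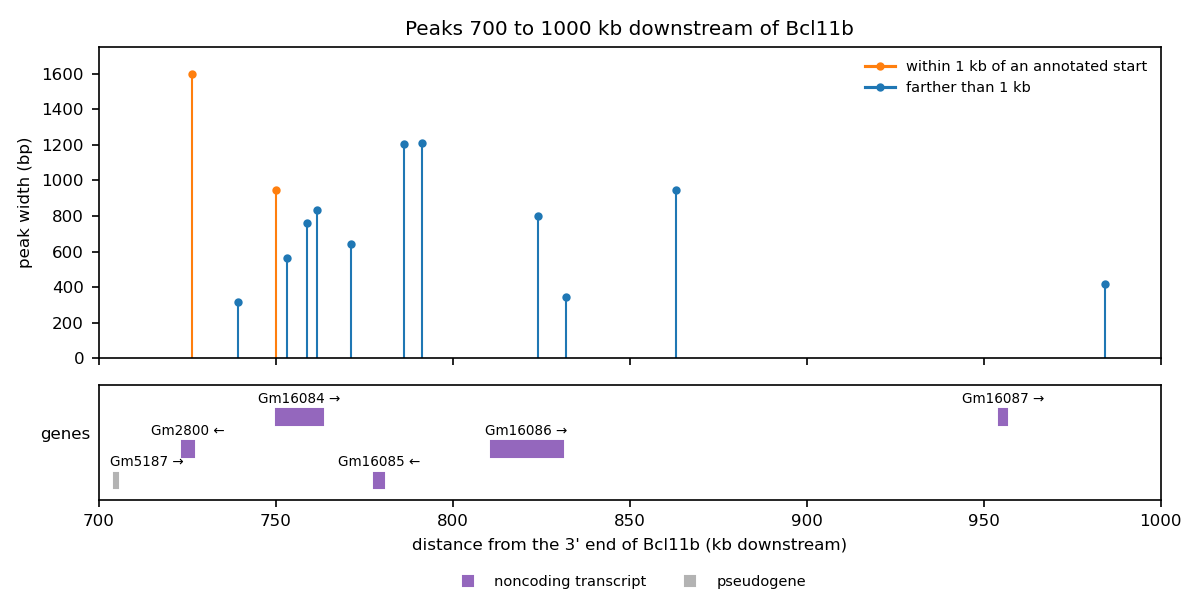
Width in bp (vertical axis) of the 13 peaks against distance in kb from the 3′ end of Bcl11b (horizontal axis, 700 to 1000 kb), with annotated transcripts below and arrows for their direction. Between 726 and 792 kb 9 peaks stand together, 2 of them over the starts of Gm2800 and Gm16084, and the remaining 4 are spread over the rest.

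Annotated noncoding transcripts were examined since enhancer regions are often transcribed. Of the 11 noncoding genes in the 1.5 Mb, 2 had a peak over the start (19.0% of autosomal noncoding genes did), Gm2800 (chr12:108421765-108424944, plus strand) and Gm16084 (chr12:108385374-108398417, minus strand). Their starts were 23.3 kb apart, and they are transcribed away from each other. In total, 4 of the 11 had a peak within 1 kb of the start, the other 2 being 4930465M20Rik, at 512 bp, and 1700013N06Rik, at 737 bp. Over the autosomes this held for 26.3% of 3669 noncoding genes. Of the 7 pseudogenes downstream, 1 had a peak this close, Gm17052 at 276 bp, against 3.77% of the 4055 autosomal pseudogenes.

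Noncoding genes covered 12.4% of the 1.5 Mb (186 kb) and contained the centres of 18 of the 54 peaks (33.3%). This corresponds to 96.8 peaks per Mb inside them and 27.4 per Mb outside. Among distal peaks it was 15 of 49, against 3.60% of autosomal distal peaks, a share that also depends on how much of each region is annotated as noncoding. Of the 18 peaks, 1 was centred in an exon. Gm15208, which lies nearest to Bcl11b, contained 6 peaks, 1700013N06Rik and Gm16084 contained 3 each, 4930465M20Rik and Gm17033 contained 2 each, and Gm2800 and Gm16086 contained 1 each. Hence the run of 6 peaks at 130 to 158 kb lay in introns of Gm15208.

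The protein-coding neighbours frame the region. Upstream, Setd3, which encodes a histidine methyltransferase of actin (chr12:109344641-109417524, minus strand), had its start in a 1170-bp peak. Beyond the desert, Vrk1, which encodes a protein kinase (chr12:107248473-107315620, plus strand), had its start in an 889-bp peak. Between Bcl11b and Vrk1 the annotation holds 1 further protein-coding gene, 3110018I06Rik (chr12:108726842-108727846, 1005 bp), and its nearest peak was 8312 bp from its start.

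Next, the desert was compared with the other deserts of the genome, defined as gaps of at least 1 Mb between neighboring protein-coding genes on the autosomes. Of the 242 deserts, the gap from Vrk1 to 3110018I06Rik (chr12:107315621-108726841, 1.41 Mb) had the highest density, with 38 peaks or 26.9 per Mb. The median of the other 241 was 0.251 per Mb (quartiles 0 and 0.970), and 120 of them had no peak. Desert densities close to it were 25.3 per Mb between Sall3 and Galr1, 24.8 between Id2 and Rnf144a, and 23.5 between Myc and Gsdmc. With distal peaks only, this gap had 24.1 per Mb and was exceeded by the gap from Sall3 to Galr1, at 25.3. The inner stretch, between 3110018I06Rik and Bcl11b, is too short for this definition (421 kb) and held 19 peaks, or 45.2 per Mb. With 3110018I06Rik left out, a choice made after seeing the data, the gap from Vrk1 to Bcl11b measured 1.83 Mb and held 57 peaks, or 31.1 per Mb (28.4 per Mb with distal peaks only).

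**Figure D4:**
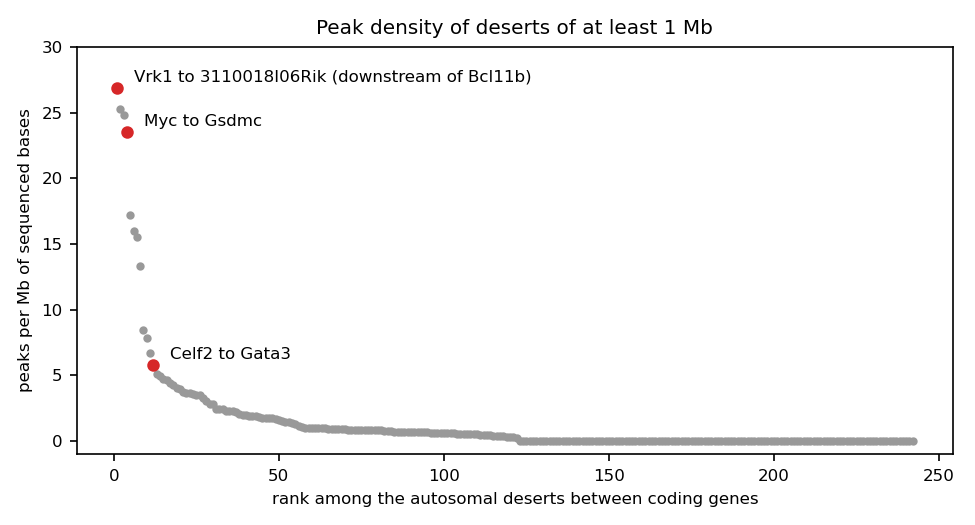
Peaks per Mb of sequenced bases (vertical axis) for the 242 autosomal gaps of at least 1 Mb between protein-coding genes, ranked from dense to sparse (horizontal axis). The gap from Vrk1 to 3110018I06Rik, the outer piece of the desert downstream of Bcl11b, is at the top with 26.9, and the red points for Myc to Gsdmc and Celf2 to Gata3 lie at 23.5 and 5.77.

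Gata3 and Myc, which encode transcription factors used by T-cell progenitors, also have known enhancers far downstream. The 1.5 Mb after Gata3 held 15 peaks and the 1.5 Mb after Myc held 34, against the 54 of Bcl11b. Median widths were 468 bp for Gata3, 518 bp for Myc and 540 bp for Bcl11b. The fullest 100-kb bin had 4 peaks for Gata3 and 5 for Myc, against 10 for Bcl11b. In the gene body, Gata3 held 5 peaks and Myc 1. Among all 21222 protein-coding genes with a full window, the median number of distal peaks in the 1.5 Mb downstream was 17, and 95.8% had fewer than the 49 of Bcl11b. All peaks counted, 77.9% had fewer than 54, since most windows hold many promoters (median 20 protein-coding starts). Among the 444 genes with at most 1 protein-coding start in the window, Bcl11b had the highest number. The next had 41 and the median was 0. The limit of 1 start is the count of Bcl11b itself and was not planned. Neighboring genes share parts of their windows, so these genes are not independent.

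The base composition of the peaks downstream was close to that of distal peaks in general. For the 49 distal peaks the median GC content was 50.7% and the median CpG ratio 0.232, against 50.1% and 0.214 for all distal peaks. Over all 54 peaks these medians were 50.9% (43.8% to 57.6%) and 0.228. Few distal peaks are CpG-rich if a CpG ratio from 0.6 upwards is required together with at least 50% GC (2.94% of all), and downstream of Bcl11b this held for 0 of the 49 and for 0 of all 54 peaks. The 54 include far peak A over the start of Gm2800, with a ratio of 0.301, so that it differs from the promoter peak of Bcl11b in this measure.

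The words for RBPJ and for RUNX, GATA and TCF7/LEF1 factors were then counted in the central 300 bp of the 49 distal peaks downstream. TGGGAA was in 12 of the 49 (24.5%, 95% Wilson interval 14.6 to 38.1%) and in 24.7% of all 21005 distal peaks. TGAGAA was likewise in 12 of the 49, against 24.5%. For RUNX, TGTGGT was in 15 of 49 (30.6%, interval 19.5 to 44.5%), against 33.0%. For GATA factors, AGATAA was in 7 of 49 (14.3%, interval 7.10 to 26.7%), against 13.5%. For TCF7/LEF1, CTTTGA was in 9 of 49 (18.4%, interval 9.98 to 31.4%), against 23.0%. Shares of these 5 words thus lay close to the background, which was inside each interval.

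CAGCTG, bound by E proteins such as E2A, was in 22 of 49 (44.9%, interval 31.9 to 58.7%), against 32.7%. Among the 9 words searched it lay farthest above the background, and the interval still contained the background. AGGAAG for ETS was in 25 of 49 (51.0%, interval 37.5 to 64.4%), against 48.2%. GGGCGG was in 8 of 49 (16.3%, interval 8.51 to 29.0%), against 12.4%. The CTCF core was in 11 of 49 (22.4%, interval 13.0 to 35.9%), against 22.9%. The intervals cover counting only, and peaks of a run are not independent draws.

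**Figure D5:**
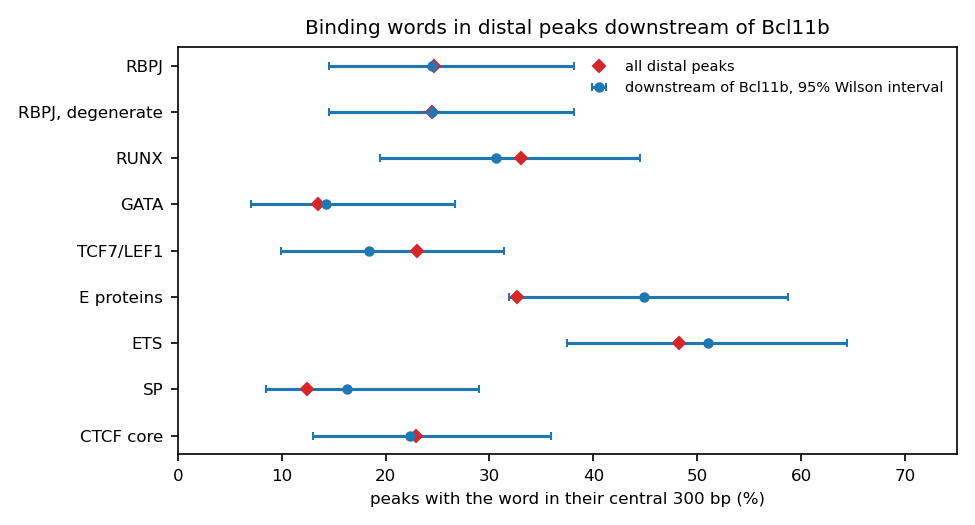
Share in percent (horizontal axis) of the 49 distal peaks downstream of Bcl11b with each word in the central 300 bp (blue, 95% Wilson interval) and of all distal peaks (red), by factor (vertical axis). The red diamond lies inside the blue interval for all 9 words.

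Of the 49 distal peaks downstream, 19 had 3 or more different words in the central window, which was the case for 43.4% of all distal peaks. No word was found in 1 of the 49, against 5.73% of all distal peaks. It was far peak B, the second widest of the region. Outside its central window far peak B did have TGGGAA, 3 times. Over the whole width, TGGGAA was in 21 of the 49, against 39.2% of all distal peaks. With the 5 peaks near starts, 22 of the 54 held it, with 31 sites in all and at most 3 in a peak. Far peak D had 3 as well, 2 of them in the printed window, at position 33 on the plus strand and at position 148 on the minus strand (positions are counted from 1 at the 5′ end of the window), with CAGCTG at positions 122 and 265. Far peak E had TGTGGT at positions 5, 66 and 151, together with both RBPJ words and 2 CTCF cores. Far peak C had CTTTGA at position 183 and far peak A had CAGCTG at position 265. Of the 11 distal peaks in the 0.7 to 1.0 Mb interval, 3 had TGGGAA, 3 had TGTGGT, 3 had CAGCTG and 0 had AGATAA in the central window. The shares of all distal peaks with these words were 24.7%, 33.0%, 32.7% and 13.5%. Of the other words, AGGAAG was in 5, TGAGAA in 4, the CTCF core in 3, CTTTGA in 2 and GGGCGG in 1. Their shares of all distal peaks were 48.2%, 24.5%, 22.9%, 23.0% and 12.4%. With only 11 peaks, these counts do not set the interval apart. Pairs of TGGGAA on opposite strands with 15 to 17 bases between them, in either order, were also counted. They were in 0 of the 62 peaks of the region and in 0.0667% of all distal peaks. When the words of a pair face each other, RBPJ complexes with Notch can bind them as dimers. No mismatch was allowed, whereas the authors allowed up to 2. For so rare a pair, a count of 0 in 62 peaks says little. A word match describes the sequence and does not show that the factor was bound.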

How the data were processed

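ATAC-Seq had been performed on Beko cells in 6 libraries, 3 with DMSO and 3 with GSI, and groups follow the sample titles. According to the methods and processing notes, the authors used trimGalore for trimming, HISAT2 2.2.1 for alignment to mm9, Picard for duplicates, MACS2 without input for peaks of each library and MSPC to combine replicates. Peaks present in 3 of 6 libraries were kept, outside blacklisted regions. A peak of 1 treatment can therefore be in the list, which does not record the treatment. The deposited list gives the position of each peak in bp, and its score is 0 throughout, so the score was not used here. Without input, local copy number and mappability can enter a peak call. A shift of read ends for the transposase is not given in the sources used here. The labels state the DAPT concentration in another unit than the methods, so it is not given.

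Starts were read as counted from 0 and are printed counted from 1. The reference was NCBIM37, the same build as mm9, with GENCODE vM1. Densities over whole chromosomes include assembly gaps, while densities of deserts use sequenced bases. Python 3.11.15, numpy 2.4.6, scipy 1.17.1 and matplotlib 3.10.9 were used. With 1 merged list no test was possible, and values are set beside those of all peaks, genes or deserts. The search for words and the joining of peaks were tested on simulated data. Repeat content was planned but not computed, since the reference was not repeat-masked.

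Peaks named by position are those within 1 kb of a Bcl11b start, the 5 widest others of the gene body, the 5 widest downstream, the nearest and farthest downstream, and all between 0.7 and 1.0 Mb downstream. The sixth gene body peak, the second upstream peak, the 2 peaks outside the borders, the peaks at starts of neighboring genes, far peaks D and E, the deserts other than those of Gata3 and Myc, the length class of genes and the 15 kb used to join runs were chosen after values were seen. The limit of 1 protein-coding start for windows was not planned either. The members and lists were chosen with earlier results of these data known. Alternatives were a minimum width, joined peaks, other borders, other gap lengths, distal peaks only and other word windows.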

Additional observations from a re-analysis of the deposited data

How the results depend on the processing

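Keeping only peaks of at least 500 bp left 36 of the 62 peaks of the region, lowered the density downstream to 20.7 per Mb and raised the median width downstream to 763 bp, as fewer and wider peaks are counted. Under the same limit the density relative to the autosomes was 2.82 times, against 2.79 with all peaks. TGGGAA was in 24.1% of all 54 downstream peaks in the central 300 bp and in 40.7% when the whole peak was searched, with 39.2% of all distal peaks on the longer stretch. Among peaks of at least 500 bp it was in 32.3% in the central 300 bp, against 25.7% of all distal peaks of that width. These downstream shares include peaks near starts, while the shares of distal peaks do not. The relative density ranged from 2.61 (covered length) to 3.90 (distal peaks only, added after seeing the data). The place of the desert among other deserts stayed between the percentiles 98.8 (gaps of at least 0.5 Mb) and 100. Gaps between annotated genes of any type gave no gap of at least 1 Mb in the region and hence no value. Replicates could not be left out in turn. No paired analysis was possible because replicates are merged in this list. Peak height, the number of libraries behind a peak and the depth, which decides how many weak peaks are found, were not analysed here.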
